A study of Mus musculus with 4 samples.

Results

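The Lphn2 neighbourhood is the interval chr3:146900000-150100000 of the mouse genome (mm9 build). Its members were all array probes in that interval, including every probe annotated Lphn2, AK136073 or BC075654, which gave 108 of the 169093 probes that the design places on the genome. Within it, a stretch of 81 probes was low in tumour 1 and high in tumour 4. The interval was chosen for that pattern, so the ratios of the stretch are given as a description, without a test. The remaining 27 probes, 13 on the proximal side (lower coordinates) and 14 on the distal side, are called the flanks.

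The study used comparative genomic hybridisation, in which tumour DNA labelled with Cy5 and reference DNA labelled with Cy3 compete for the same probes of up to 60 bases. By their labels, the 4 tumours were liver tumours of 4 male Trp53-/- mice. The mice were described as C57BL/6J with a loss of Trp53 specific to the liver. Each tumour was hybridised to 1 array with no dye swap. The reference was spleen DNA pooled from 3 sex-matched littermates, labelled Trp53-/- and male as well, although the labelling protocol speaks of liver as the reference. The labels used here give neither the age of the mice nor the driver of the deletion, and a tumour sample can hold cells other than tumour cells.

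Lphn2, now named Adgrl2, encodes latrophilin 2, an adhesion G-protein-coupled receptor. Latrophilins carry a long extracellular part that binds teneurins and FLRT proteins on neighbouring cells, and they are best known from synapse formation in the nervous system. Of the other annotations in the interval, AK136073, BC075654, AK139864, AK029623 and AK085270 are names from the array design that the tables used here do not annotate, so no role is given.

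The probes that bound the 81-probe stretch are printed first, in lower case. They mark the stretch as defined here, and the proximal edge differed by 1 probe between tumours 1 and 4. All come from the array design and none is annotated with a gene. On the proximal side, the last probe outside lay at chr3:147332908-147332967 and the first probe inside at chr3:147369780-147369839.
A_67_P05112245: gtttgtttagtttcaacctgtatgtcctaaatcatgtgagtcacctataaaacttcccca
A_67_P05112331: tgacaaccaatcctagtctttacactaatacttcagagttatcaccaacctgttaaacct
On the distal side, the last probe inside lay at chr3:149646958-149647017 and the first probe outside at chr3:149666386-149666444.
A_67_P05117953: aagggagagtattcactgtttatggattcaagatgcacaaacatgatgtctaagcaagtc
A_67_P05117990: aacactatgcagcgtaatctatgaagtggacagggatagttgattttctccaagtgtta

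Before the ratios of the stretch are read, arrays 1 and 4 need a remark, because one channel of each went against its male label. Channel levels are log2 signals of one dye, centred on the autosomes and set against the median of each probe over the 8 channels. On chromosome X the tumour channels of arrays 1 to 4 read −0.06, −0.16, −0.06 and 0.74, and the reference channels read 0.76, −0.12, −0.06 and −0.10. On chromosome Y the tumour channels read −0.19, 0.15, 0.04 and −2.16, and the reference channels read −2.41, 0.22, 0.23 and 0.19. The reference channel of array 1 and the tumour channel of array 4 therefore stood apart from the other 6 channels on both sex chromosomes. The mean of the stretch over tumours is therefore also given without arrays 1 and 4. That mean rests in part on array 2, whose noise its file header marks as out of range. The edges, the calls and the comparisons of tumour 1 with tumour 4 rest on these arrays and have no value without them.

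The log2 ratio of tumour over reference, centred on the autosomal median, averaged −0.52 in tumour 1, −0.064 in tumour 2, −0.0036 in tumour 3 and 0.54 in tumour 4 over the 81 probes of the stretch. The linear ratios were 0.697, 0.957, 0.997 and 1.45. The spread over probes was 0.24, 0.35, 0.16 and 0.26 (SD, n = 81 probes), and probes of one array are not replicates. In tumour 1, 79 of the 81 probes lay below 0, and in tumour 4, 78 of the 81 lay above 0. In tumours 2 and 3, 34 and 47 of the 81 probes lay above 0. The mean over the 4 tumours was −0.013 ± 0.43 (SD, n = 4), and the mean of tumours 2 and 3 alone was −0.034. For scale, a log2 ratio of 0.58 corresponds to 3 copies against 2 and −0.58 to 2 against 3 in undiluted DNA. The probe medians were −0.55 in tumour 1 and 0.58 in tumour 4. With another background correction (normexp) the means were −0.69 and 0.64. Copy number was not tested.

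Outside the stretch the ratios returned to the level of the rest of the chromosome. The 13 proximal flank probes averaged −0.0093, 0.017, −0.014 and 0.047 in tumours 1 to 4, and the 14 distal flank probes 0.063, 0.0079, −0.012 and 0.054. The other 9845 probes of chromosome 3 averaged 0.0039, −0.049, −0.0040 and 0.0040.

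Segments were found by penalised least squares and called lost or gained where at least 5 probes averaged 0.2 or more away from 0. In tumour 1 all 81 probes lay in 1 segment called lost, against 0.117% of the 159076 autosomal probes. In tumour 4 all 81 lay in 1 segment called gained, against 3.27% of autosomal probes. No probe of the stretch was called gained in tumour 1, where 4.24% of autosomal probes were, or lost in tumour 4, where 4.45% were. Since the interval was chosen on these ratios, nothing is read from those counts. In tumours 2 and 3 none of the 81 probes was called, where 4.45% and 0.0962% of autosomal probes were called gained and 0.215% and 0.0189% called lost. Of all autosomal probes, 109 (0.0685%) were called lost in tumour 1 and gained in tumour 4, and 81 of these were the stretch. The opposite, gained in tumour 1 and lost in tumour 4, held for 0.00566%.

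The edges were shared to within 1 probe. In tumour 1 the segment ran over chr3:147369780-149647017, a length of 2.28 Mb. In tumour 4 it ran over chr3:147332908-149647017 and took in 1 more proximal probe, A_67_P05112245. That probe read 0.15, 0.57, 0.19 and 0.35 in tumours 1 to 4, so it was above 0 in every tumour. It was also more than 1 log2 unit dimmer in both channels together on arrays 2 and 4 than on arrays 1 and 3, as was the first probe inside on array 2. Just inside, A_67_P05112331 read −0.33, 0.19, −0.031 and 0.84. At the distal end, A_67_P05117953 read −0.38, 0.35, 0.22 and 0.50 inside, and A_67_P05117990 read 0.18, 0.10, −0.075 and −0.013 outside. The gap between probes, which limits the resolution, was 36.8 kb at the proximal edge and 19.4 kb at the distal edge.

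Lphn2 itself was covered by 8 probes over chr3:148484662-148606546, near the middle of the stretch. In tumours 1 to 4 it averaged −0.48, 0.058, 0.060 and 0.53 on the log2 scale, and its probes had an SD of 0.14, 0.45, 0.14 and 0.14. In tumour 1 all 8 probes lay below 0, between −0.69 and −0.27. In tumour 4 all 8 lay above 0, between 0.30 and 0.73. In order along the chromosome the 8 probes read −0.37, −0.27, −0.59, −0.69, −0.51, −0.40, −0.56 and −0.42 in tumour 1. The same probes read 0.55, 0.47, 0.48, 0.73, 0.30, 0.50, 0.49 and 0.72 in tumour 4. In tumour 2 the 8 probes ran from −0.66 to 0.71. Since the interval was chosen for this pattern, nothing is read from the separate ranges of tumours 1 and 4.

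AK136073 had 13 probes over chr3:148293393-148847691, on both sides of Lphn2, and averaged −0.50, −0.056, −0.065 and 0.51. Its 6 probes before Lphn2 averaged −0.50 in tumour 1 and 0.58 in tumour 4, and its 7 probes after Lphn2 averaged −0.50 and 0.45. BC075654 had 13 probes over chr3:148959395-149107775 and averaged −0.46, −0.14, −0.033 and 0.38. AK139864, with 5 probes, averaged −0.53, −0.28, −0.15 and 0.56. The single AK029623 probe read −0.44, 0.29, 0.063 and 0.67. The 27 unnamed probes before AK136073 averaged −0.56, −0.066, 0.034 and 0.60, and the 7 unnamed probes after AK139864 averaged −0.62, 0.057, 0.081 and 0.59. Between AK029623 and BC075654, 3 unnamed probes averaged −0.37, −0.26, −0.088 and 0.50, and between BC075654 and AK139864, 4 unnamed probes averaged −0.55, 0.025, −0.016 and 0.56. Every named annotation and all 4 unnamed runs of the stretch averaged below 0 in tumour 1 and above 0 in tumour 4. The 40 named probes averaged −0.48 in tumour 1 and 0.48 in tumour 4, and the 41 unnamed probes −0.56 and 0.59. AK085270, the one named probe of the flanks, read −0.15, −0.22, 0.014 and 0.12. The nearest names beyond the interval were AK045762 on the proximal side, which averaged 0.32, −0.13, −0.10 and −0.04, and AK139135 on the distal side, which averaged 0.04, −0.33, −0.15 and 0.05.

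Tumours 1 and 4 were also set against each other probe by probe. Of the 81 probes, 78 were below 0 in tumour 1 and above 0 in tumour 4. The difference of tumour 4 minus tumour 1, divided by 2, averaged 0.53 ± 0.23 (SD over 81 probes) in the stretch and 0.011 ± 0.10 over the 27 flank probes. Across the 81 probes the ratios of the 2 tumours had a Pearson r of −0.70, which was −0.30 without 2 probes and 0.17 over the flanks. These correlations run across probes of the same 2 arrays and are descriptions only.

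The 2 probes were the ones whose tumour 4 value lay below their tumour 1 value, and their sequences, chosen after their values were seen, are shown because they break the pattern. A_67_P05116360 lies in BC075654 at chr3:148999545-148999601, and capitals mark an 8-base inverted repeat. A_67_P05117064 lies in AK139864 at chr3:149266609-149266668.
A_67_P05116360: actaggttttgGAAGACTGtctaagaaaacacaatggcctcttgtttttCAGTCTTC
A_67_P05117064: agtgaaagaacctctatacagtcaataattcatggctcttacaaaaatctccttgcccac
The first read 0.98, 0.13, 0.077 and −0.96 in tumours 1 to 4, the reverse of its surroundings and nearly as far from 0 in tumour 4 as in tumour 1. Its channel levels were 0.087, 0.044, 0.046 and −0.70 in the tumour channels and −0.90, −0.094, −0.038 and 0.25 in the reference channels. It was thus low in the reference channel of array 1 and in the tumour channel of array 4, where its neighbours were high. Without it, BC075654 averaged −0.58 in tumour 1 and 0.49 in tumour 4. An inverted repeat of at least 8 bases was found in 2 of the 108 probes here and in 1748 of the 159076 autosomal probes. The second read 0.14, −0.58, −0.56 and −0.13, so it lay above 0 in tumour 1 and below 0 in tumours 2, 3 and 4. Whether either sequence matches the genome at more than 1 place was not tested.

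Reading each channel apart showed which dye carried the change. In the stretch the tumour channels of arrays 1 to 4 had levels of −0.020, −0.27, −0.0038 and 0.39, and the reference channels had levels of 0.50, −0.21, −0.0075 and −0.15. The low ratio of tumour 1 thus came with a high reference channel and a tumour channel near 0. The high ratio of tumour 4 came with a high tumour channel. Over the flanks the tumour channels read 0.06, −0.0052, 0.03 and −0.04, and the reference channels 0.03, −0.03, 0.03 and −0.10. Over the 8 Lphn2 probes the tumour channels read 0.11, −0.44, 0.04 and 0.35, and the reference channels 0.58, −0.51, −0.03 and −0.18. The 2 high channels of the stretch were the same 2 that stood apart on chromosomes X and Y. Their X and Y levels went against the male labels, as given above. Which animals the DNA in those channels came from was not tested. A gain or loss in the tumours cannot be told apart from a difference in the DNA of those channels.

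Some probes were dim in both channels of arrays 2 and 4. Against arrays 1 and 3, 6 of the 108 probes were more than 1 log2 unit dimmer on array 2, where 2.66% of autosomal probes were, and 5 of the 108 on array 4, against 1.13%. Without the dim probes the stretch levels were −0.07, −0.08, −0.05 and 0.46 in the tumour channels and 0.45, −0.03, −0.05 and −0.09 in the reference channels. One of the dim probes lies in Lphn2, and without it the tumour channels of Lphn2 read 0.02, −0.02, −0.08 and 0.50 and the reference channels 0.48, −0.05, −0.15 and −0.04. Both array 2 levels of the stretch were nearer to 0 without them, and the 2 high channels were still the highest.

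Segments with opposite ratios in tumours 1 and 4 were looked for elsewhere, in either direction. Beside the stretch, tumour 1 had 15 called segments, of which 5 averaged at least 0.2 the other way in tumour 4. Tumour 4 had 19, of which 7 were opposite in tumour 1. A segment called in both tumours, such as that with Loxl2, enters both counts. Some ran against the direction of the stretch. In tumours 1 and 4 these averaged 0.37 and −0.24 from chr4:121421412, 0.25 and −0.70 from chr9:103907130, and 0.39 and −0.33 from chr7:24417276. In that order, the reference channel of array 1 read −0.25, −0.28 and −0.25 there. The tumour channel of array 4 read −0.25, −0.57 and −0.28. All the rest ran with the stretch. Among them, tumours 1 and 4 averaged −2.44 and 0.84 from chr7:26789486, −1.80 and 1.89 from chr7:21316760, and −0.66 and 0.62 from chr7:16486467. Among 5251 autosomal genes with at least 5 probes, the gene closest to the stretch over the 4 tumours was Loxl2, a lysyl oxidase homologue that acts on extracellular matrix. Loxl2 averaged −0.56, −0.10, −0.062 and 0.53, at a Euclidean distance of 0.081 from the stretch. At most 1 gene was taken per called segment, so other genes of the segment with Loxl2 were not listed. The next listed were Nlrp4c, Ccdc11, Shc3 and Crxos1, at distances of 0.34, 0.36, 0.43 and 0.47. The segment with Loxl2, Entpd4 and Slc25a37, at chr14:69877295-70070594, averaged −0.60 in tumour 1 and 0.49 in tumour 4. There the tumour and reference channels of array 1 read −0.13 and 0.47, and those of array 4 read 0.47 and −0.03, so the same 2 channels were high.

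The other latrophilins and the genes of their binding partners were read from a list of 14 names, 12 of which had probes and 11 of which were autosomal. Lphn2 lies in the interval chosen for its ratios, so its calls are not counted here. None of the other 10 was called in any tumour, against 10.6% of 21343 autosomal genes called in at least 1 tumour. By tumour, 4.00%, 4.60%, 0.0234% and 2.18% of these genes were called gained in tumours 1 to 4, and 0.117%, 0.319%, 0.00937% and 5.55% were called lost. The other 10 averaged between −0.19 and 0.062 in tumour 1 and between −0.15 and 0.094 in tumour 4. Lphn1 averaged 0.0070, 0.064, 0.093 and −0.076, and Lphn3, with 82 probes, 0.062, −0.084, −0.00045 and 0.076. Eltd1, a related receptor on chromosome 3 beyond the distal flank, averaged 0.031, −0.12, 0.044 and −0.0097. Odz1, a teneurin gene on chromosome X, averaged −0.85, −0.085, 0.016 and 0.90, with the X levels given above. Of a wider list of 31 adhesion receptors, 26 were autosomal with probes. Leaving out Lphn2, 3 of the other 25 were called in at least 1 tumour, beside the 10.6% given above. Among these were Bai1, which averaged 0.24, 0.60, 0.14 and 0.30, and Celsr1, a cadherin receptor of planar cell polarity, which averaged 0.27, 0.36, 0.14 and 0.22. Both lie on chromosome 15 and were called gained in tumours 1, 2 and 4. In tumour 1 both calls came through 1 segment of 6572 probes. In tumour 4 they came through segments of 4328 probes (Bai1) and 693 probes (Celsr1). Celsr3, on chromosome 9, was called lost in tumour 4 through its segment, and its 2 probes averaged −0.19, 0.49, −0.034 and −0.14.

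Trp53, the gene named in the genotype, had 2 probes, which averaged −0.19, −0.14, 0.12 and −0.30. The extent of the deletion is not given in the labels used here, so these probes do not check the genotype.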

How the data were processed

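DNA of 4 tumours and of the pooled reference was measured on 4 two-colour Agilent arrays, on 2 slides (tumours 1 and 2, tumours 3 and 4). Per the file headers, the authors extracted spot intensity with Agilent Feature Extraction 12.0.1.1 on mm9, and the submitters' processing notes name version 12.0.0. The deposited processed intensity is background-subtracted and dye-normalised, and the deposited log10 ratio is red (tumour) over green (reference).

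Here the log2 ratio of the processed intensities was taken, control and outlier-flagged spots were left out, repeat spots were averaged per probe, and the autosomal median of every array was set to 0. No spot of the interval was flagged or saturated. Segments came from penalised least squares (penalty factor 3, at least 5 probes, threshold 0.2), tested on simulated data. Normexp used limma 3.58.1 in R 4.3.3 with an offset of 50, and the rest used Python 3.11.15. The SD between neighbouring probes was 0.12, 0.37, 0.15 and 0.15 on arrays 1 to 4. The file headers give a similar noise measure, which was 0.36 and marked out of range on array 2, and in range on arrays 1, 3 and 4. The number of arrays limits the precision, and no p-value was computed.

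Genes were named where they lie in or next to the interval, belong to the latrophilin or adhesion receptor lists and were called, or are the 5 closest to the stretch in Euclidean distance, along with Trp53. Lphn1, Lphn3, Eltd1 and Odz1 were named in addition, after their values were seen. The members and lists were chosen with earlier results of these data known. Alternatives were background correction, centring, intensity and GC trends, flagged spots, the probe summary, segmentation settings and leaving out arrays.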

Additional observations from a re-analysis of the deposited data

Results flagged for a closer look

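The mean log2 ratio of chromosome 3 outside the interval was −0.049 in tumour 2, apart from the other 3 tumours by Dixon's criterion. Its gap to the nearest tumour was 0.847 of the whole range. It was the only such value among 32 examined, and a few such values arise by chance. Array 2 had the largest SD between neighbouring probes, 0.37.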

How the results depend on the processing

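Of the recomputed values, 167 stayed within the limit set for their kind and 2 moved by more. For ratios and channel levels of one array the limit was the SD between neighbouring probes. For the mean over tumours it was the SD over tumours, 0.43. Edges were allowed a move of 1 probe, and counts of called probes a set fold difference. With normexp background correction the stretch mean of tumour 1 was −0.69 and the reference channel level of array 1 was 0.63, and the cause was not tested. Over all settings the stretch mean ran from −0.69 to −0.49 in tumour 1, from −0.12 to −0.03 in tumour 2, from −0.03 to 0.03 in tumour 3 and from 0.52 to 0.64 in tumour 4. Leaving out 1 tumour at a time, the mean over tumours ran from −0.20 (without tumour 4) to 0.16 (without tumour 1). It was −0.29 on slide 1 and 0.27 on slide 2. These means over fewer tumours count among the 167 only because the SD over tumours is wide. Some other settings could hardly move a value. No spot of the interval was flagged, and the deposited log ratio is nearly the same ratio. The called segments of tumours 1 and 4 lay well beyond the other thresholds, 0.1 and 0.3. With normexp the proximal end of the segment lay at 147407593 in tumour 1 and 147369780 in tumour 4. Leaving out arrays 1 and 4, the 2 opposing probes or the dim probes (also for Lphn2), the other channel baseline and the segmented difference were chosen after seeing the data. No paired analysis was possible because there was 1 group, with each tumour on its own array.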
